A study of Mus musculus with 22 samples.

Results

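CTCF peaks called in G1E-ER4 cells after 24 h of β-estradiol were placed against H3K4me3 and H3K27ac peaks of the same time point and against the transcription start sites (TSSs) of protein-coding genes in mm10. The members were the 41473 peaks of the single 24 h CTCF list, read beside 12925 and 13070 H3K4me3 peaks and 17724 and 17247 H3K27ac peaks from 2 replicate lists of each mark, in all 102439 of the 388984 peaks in the series. No measured value chose them. G1E-ER4 (G1ER) cells are a mouse Gata1-null erythroid progenitor line that carries GATA1 fused to the oestrogen receptor ligand-binding domain, so every group lacks endogenous Gata1 and differs only in the time of β-estradiol (10-7 M), which activates the fusion. All groups were grown with SCF and EPO. Each mark was profiled at 0, 2, 6, 12 and 24 h in 2 replicates, and CTCF at 0 and 24 h in 1 list each. Nothing in the labels says that replicates came from separate cultures, so the spread between replicates may be technical. A region of a mark is a merged stretch with a peak in both replicate lists, which gave 12293 H3K4me3 regions over 31.8 Mb and 15547 H3K27ac regions over 46.1 Mb at 24 h.

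CTCF is a zinc-finger protein that binds a long, GC-rich and directional DNA motif and halts the cohesin ring, so that loops form preferentially between sites whose motifs point at each other. It is best known for insulating enhancers from promoters, and it also occupies many promoters. H3K4me3 marks the promoters of active and poised genes. H3K27ac marks active promoters and active enhancers, so a distal H3K27ac region without H3K4me3 is the usual picture of an enhancer.

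The CTCF list had a median peak length of 866 bp and peak scores from 50.00 to 3136, with a median of 150.0. The score reads as 10 times the negative log10 p-value of the peak caller, and the lowest in the files is 50.00. The 20 mark lists held 12925 to 18333 peaks and spanned 29.3 to 46.6 Mb. Read depth behind each list is unknown, since the files hold peaks and not reads. At 24 h H3K4me3 lay at 6 of 9 erythroid marker promoters and at 0 of 14 promoters that mark other lineages (T and B cells, macrophages, liver, neuron, muscle), against 43.8% of all protein-coding genes, and H3K27ac at 3 and 0, against 40.0%. The 3 erythroid markers without it were Gata1, which is disrupted in this line, Tal1 and Gfi1b, each read at a single TSS. Of the 41473 CTCF peaks, 32903 (79.3%) touched no peak in any of the 20 mark lists and 3603 (8.69%) touched a peak in all 20.

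The CTCF motif is shown here at the peaks with the highest scores, because peaks that hold it and peaks that lack it were placed differently. The core searched for was CCANNAGNNGGC, in which N is any base, on both strands. It was found in 22593 peaks (54.5%, 95% Wilson interval 54.0 to 55.0%) and in 8.45% of windows of equal length lying 2 kb beyond the peak ends, a ratio of 6.45. The median distance from the peak midpoint to the nearest core was 62.0 bp. The lines below give 30 bases of GRCm38 (mm10, RefSeq) around the core, 5′ to 3′ on the strand that carries it, with the 12 core letters in capitals. They come from the 3 highest-scoring peaks of each class that hold the core outside annotated UTRs and are at most 50% soft-masked as repeats, a choice made after their values were seen, and each is named by the nearest protein-coding TSS.
Rapgef1, at a TSS with both marks, chr2:29619677-29619706, plus strand: ggctccgggCCATCAGGGGGCgctgtggcg
Adprhl2, at a TSS with both marks, chr4:126321739-126321768, minus strand: gactccgggCCACAAGGGGGCgctgtgggg
Gm45844, at a TSS with both marks, chr7:7278497-7278526, minus strand: tctctgtcaCCACCAGGTGGCgacagagag
Twf2, at a TSS without a mark, chr9:106212122-106212151, minus strand: gcactgcgcCCAGTAGGGGGCgcagcgaag
Cln6, at a TSS without a mark, chr9:62847874-62847903, plus strand: ccacagcggCCACTAGAGGGCagcaagcag
Ccdc110, at a TSS without a mark, chr8:45934942-45934971, minus strand: cctctgtggCCACCAGAGGGCgcgctatga
Ppp6c, distal in H3K27ac, chr2:39373308-39373337, minus strand: ctcttgcttCCACAAGGTGGCacccctgat
Cr2, distal in both marks, chr1:195242028-195242057, minus strand: tttaatcttCCAAAAGGGGGCcaggcagta
Esp38, distal in both marks, chr17:39849007-39849036, minus strand: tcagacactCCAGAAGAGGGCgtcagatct
Sec22c, distal without a mark, chr9:121697784-121697813, plus strand: tgccagtggCCACCAGAGGGCactgtaggc
Uvrag, distal without a mark, chr7:99151606-99151635, minus strand: ctagctcagCCACAAGGGGGCgctgagaat
Armc9, distal without a mark, chr1:86179019-86179048, plus strand: cataaacaaCCAAGAGCTGGCcttaccaca

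Most CTCF peaks lay away from both marks. Of 41473 peaks, 34874 (84.1%, 95% Wilson interval 83.7 to 84.4%) touched neither an H3K4me3 nor an H3K27ac region, 4174 (10.1%) touched both, 1635 (3.94%) touched H3K27ac alone and 790 (1.90%) touched H3K4me3 alone. The marked minority was still larger than position alone gave. H3K4me3 was touched by 4964 peaks (12.0%, 11.7 to 12.3%), against 4.34% of the same peaks moved by 50 or 100 kb either way (range of the 4 moves 4.02 to 4.62%), a ratio of 2.76. H3K27ac was touched by 5809 peaks (14.0%, 13.7 to 14.3%), against 5.98% of moved peaks, a ratio of 2.34. Against the replicate lists taken singly, the shares were 12.0% and 12.1% for H3K4me3 (mean 12.1% ± 0.0852, SD, n = 2) and 14.8% and 14.4% for H3K27ac (14.6% ± 0.249, SD, n = 2). There is 1 CTCF list, so these values carry no test, and intervals cover counting error only. The ratio depends on how far the peaks were moved, and was 2.32 for H3K4me3 after moves of 10 kb and 3.98 after moves of 500 kb.

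Promoters and distal regions took different shares. A coding TSS lay within 1 kb of 3951 CTCF peak midpoints (9.53%, 9.25 to 9.81%), against 5.01% of moved peaks, a ratio of 1.90. Splitting these by mark showed opposite departures from the moved peaks. Peaks near a TSS that touched either mark made up 7.30% of the list against 2.20% after moving, a ratio of 3.32, while peaks near a TSS that touched neither mark made up 2.23% against 2.81%, a ratio of 0.792. Beyond 1 kb, 3117 peaks (7.52%) touched H3K27ac, against 4.08% of moved peaks, a ratio of 1.84. The largest single group was distal and unmarked, with 33950 peaks (81.9%), at a median of 19240.5 bp from the nearest coding TSS.

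**Figure D1:**
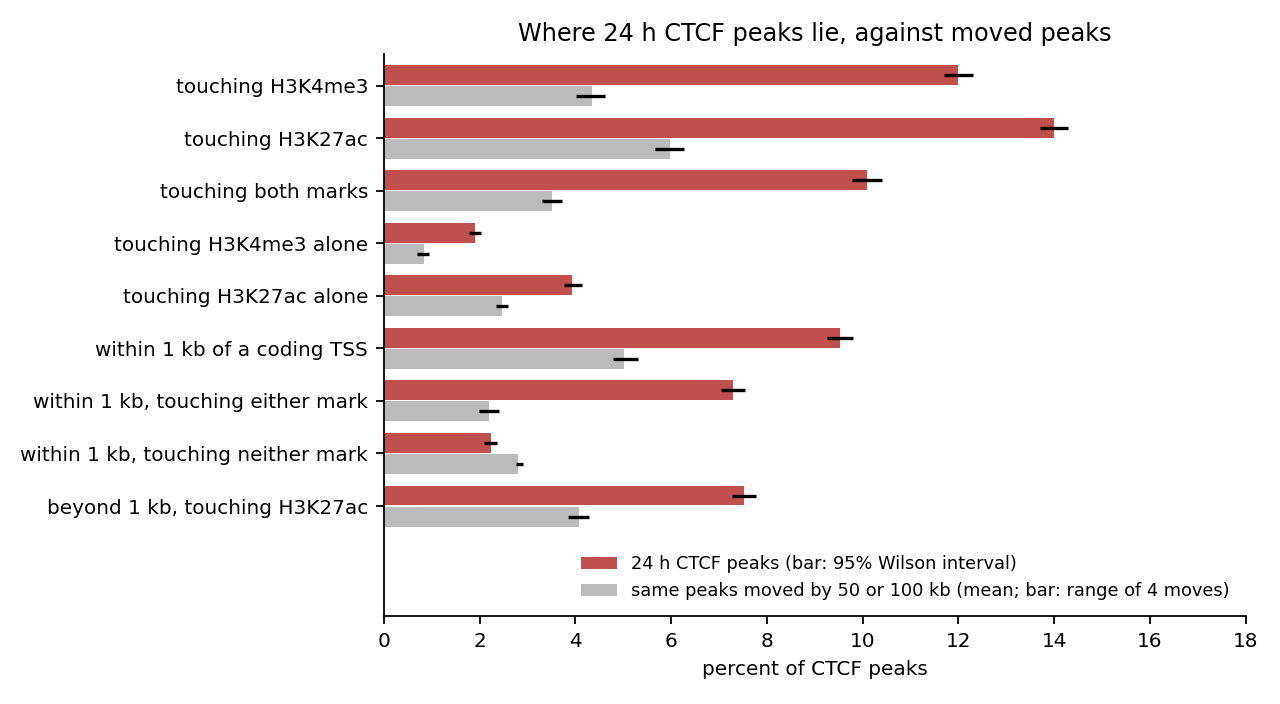
Percent of the 41473 CTCF peaks at 24 h in each position (red, bars for 95% Wilson intervals) and of the same peaks moved by 50 or 100 kb (grey, mean and range of 4 moves). Red exceeds grey in every position shown but 1, peaks within 1 kb of a TSS that touch neither mark, at 2.23% against 2.81%.

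The excess fell sharply at the region edges. In each 500 bp bin from 4500 to 10000 bp outside, midpoints per Mb were again above moved peaks. At 6500 to 7000 bp outside H3K4me3 regions with a TSS they were 53.5 against 42.5, beside 45.5 against 42.4 in the first 500 bp. The rings below are shares of all peaks by nearest distance, so peaks that touch a region are absent from them. In the ring up to 1 kb outside H3K4me3 regions the share of CTCF peaks was 2.43%, against 2.33% for moved peaks (ratio 1.04), and outside H3K27ac regions it was 2.75% against 2.90% (ratio 0.950). Rings out to 20 kb stayed between 0.978 and 1.09 for H3K4me3 and between 0.950 and 1.07 for H3K27ac. Around TSSs the ring from 1 to 2 kb likewise had a ratio of 1.03, beside 1.90 within 1 kb. From 50 to 100 kb the ratios for H3K4me3 and H3K27ac were 0.761 and 0.738, which cannot be read as a depletion of CTCF. Moves of 50 or 100 kb can place peaks that touched a region at about that distance from it. As shares of all peaks, the far rings are also lowered by the excess at the regions. The median distance from a CTCF peak to the nearest H3K4me3 region was 24685 bp, against 36478 bp for moved peaks, and to the nearest H3K27ac region 19773 bp against 29889 bp.

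**Figure D2:**
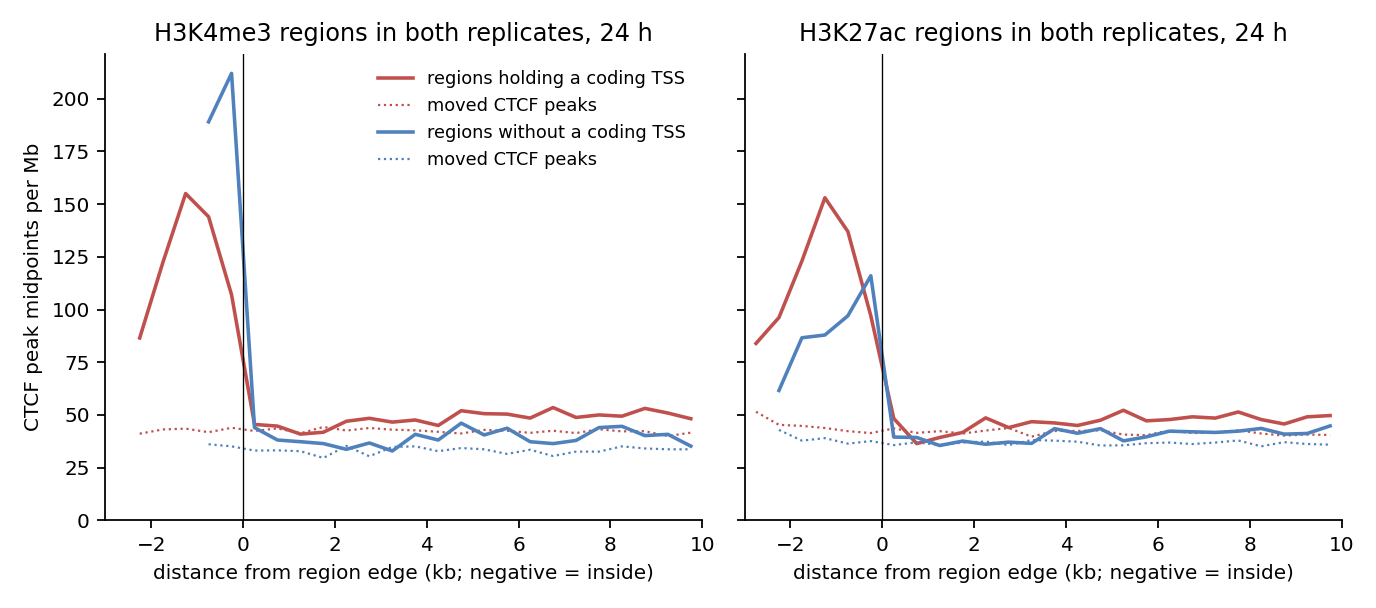
CTCF peak midpoints per Mb (y) against distance from the edge of regions called in both replicates (x, kb, negative inside), for regions with (red) and without (blue) a coding TSS, with moved CTCF peaks dotted. Solid lines rise far above dotted ones inside the edge and fall close to them just outside it. Farther out they run somewhat above the dotted lines. In H3K4me3 regions without a TSS the rise sits in the last 1 kb inside the edge, as these regions are short.

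At promoters with H3K4me3, CTCF peaks were packed close to the TSS. With 1 TSS per gene, the 9576 TSSs that had H3K4me3 within 1 kb carried 1387 CTCF midpoints from 250 bp upstream to 250 bp downstream, or 289.7 per 1000 TSSs per kb, against 42.6 for moved peaks (ratio 6.81). The density fell to 117 from 1000 to 250 bp upstream (ratio 2.77) and to 100.3 from 250 to 1000 bp downstream (ratio 2.36). The 12277 TSSs without H3K4me3 showed a different profile, with ratios of 0.876 upstream, 1.18 around the TSS and 0.483 downstream. Counted by gene, 3427 of 21853 protein-coding genes (15.7%) had a CTCF midpoint within 1 kb of the TSS. The share was 30.8% (2642 of 8585, 29.8 to 31.8%) where the promoter had both marks and 29.5% (292 of 991, 26.7 to 32.4%) where it had H3K4me3 alone, so the 2 intervals overlap. It was 11.2% (18 of 161, 7.19 to 17.0%) with H3K27ac alone and 3.92% (475 of 12116, 3.59 to 4.28%) with neither. Moved peaks gave 8.22%, 10.0%, 8.39% and 4.92% for the same 4 kinds of promoter.

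Seen from the marks, 4768 H3K4me3 regions (38.8%) and 5502 H3K27ac regions (35.4%) held a CTCF peak. For both marks the ratio to moved peaks was higher in the shortest regions than in the longest. Of 2341 H3K4me3 regions with no coding TSS and a length under 1623 bp, 713 (30.5%, 28.6 to 32.4%) held CTCF, against 5.86% for moved peaks (ratio 5.19), while the 2928 longest regions with a TSS held it at 49.2% against 22.4% (ratio 2.20). Short H3K4me3 regions with a TSS had a ratio of 3.32, and the longest without a TSS 2.28. For H3K27ac the ratios of the shortest regions were 3.74 with a TSS and 3.63 without, and of the longest 1.94 and 1.55. The 719 CTCF peaks in the short H3K4me3 regions without a TSS had a median score percentile of 83.3. They lay at a median of 217 bp from the region midpoint, and 650 of them (90.4%) also touched a CTCF peak at 0 h. A peak was called at 330 of them (45.9%) in all 22 lists of the series, against 57.3% of CTCF peaks in H3K4me3 regions that hold a TSS. Distal H3K27ac regions differed by H3K4me3. The 2418 with H3K4me3 held CTCF at 38.8% (36.8 to 40.7%, ratio 3.24), and the 5080 without it, the enhancer-like set, at 22.2% (21 to 23.3%, ratio 1.74). Few regions held more than 1 peak. Exactly 2 CTCF peaks lay in 193 H3K4me3 regions and in 296 H3K27ac regions, and 3 or more in 2 and 9. The regions with 3 included the promoter of Acacb (acetyl-CoA carboxylase beta), in both marks, that of Lrrc41 in H3K4me3, and H3K27ac regions whose nearest TSSs were those of Tmem144 and Cd2bp2. The next H3K4me3 region by this count, 1 of the 193, lay 6710 bp from the Impact TSS.

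The strongest CTCF peaks stood apart from the rest. Peaks were ranked by score and divided into deciles of 4147 or 4148. In deciles 1 to 9, 8.83 to 12.7% touched H3K4me3 and 11.2 to 14.9% touched H3K27ac, with no steady rise, and in the top decile the shares were 24.8% (23.5 to 26.1%) and 27.2% (25.8 to 28.6%). The ratios to moved peaks of the same decile were 4.50 and 3.55. TSS proximity followed, at 7.72 to 10.1% in deciles 1 to 9 and 15.7% in the top decile. Each replicate list of a mark gave the same step, with 25.2% and 25.4% of the top decile in H3K4me3 and 29.4% and 28.6% in H3K27ac. The 0 h CTCF list, set against 0 h marks, rose to 25.8% and 26.2% in its own top decile. Length moved with score. In peaks of 1045 bp or more the top decile touched H3K27ac at 34.8% and the rest at 24.4%. In peaks of 866 to 1045 bp the shares were 17.5% and 13.4%, in those of 679 to 866 bp 13.5% and 9.28%, and in peaks under 679 bp, with 102 of the top decile, 27.5% and 5.55%. In the top decile 774 peaks (18.7%) touched a peak in all 20 mark lists, against 8.69% in the whole list.

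**Figure D3:**
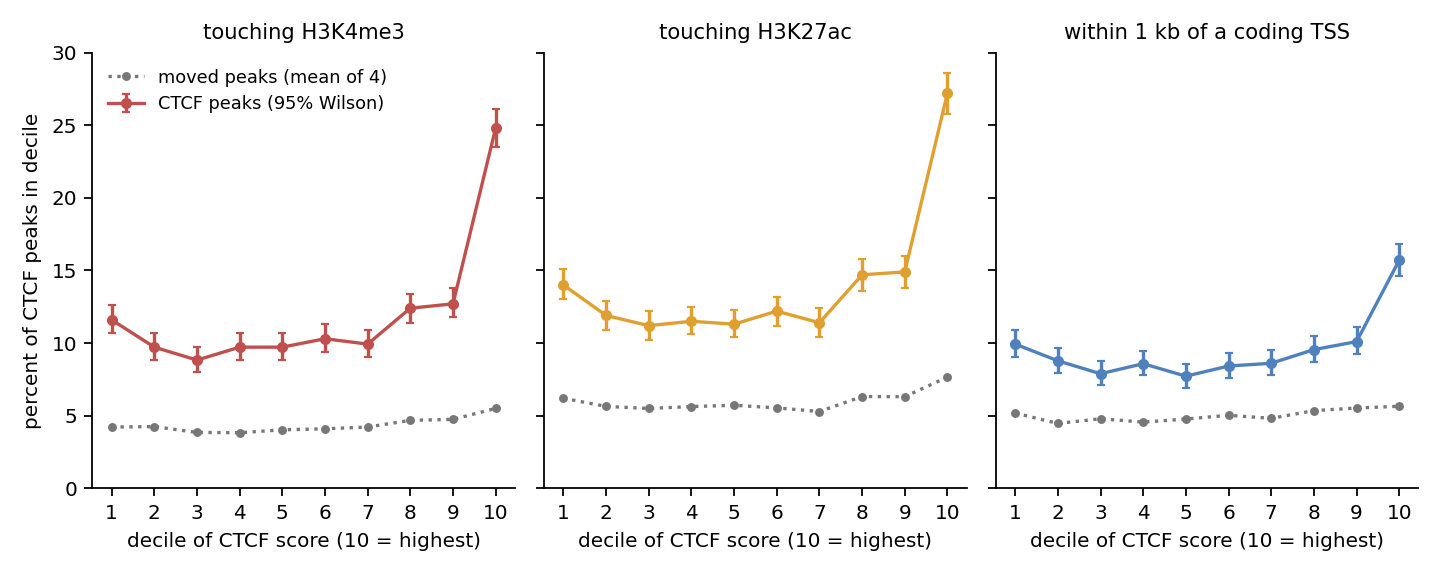
Percent of CTCF peaks (y) in each decile of CTCF score (x, 10 highest) that touch H3K4me3, touch H3K27ac or lie within 1 kb of a coding TSS, with 95% Wilson intervals, and the same for moved peaks (grey dots, mean of 4). The top decile reaches 24.8%, 27.2% and 15.7%, above every lower decile in each panel.

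The CTCF core motif was least common at marked TSSs. It was less common with a mark than without at either position. It was present in 57.8% (57.3 to 58.3%) of distal unmarked peaks, in 50.1% (48.4 to 51.9%) of distal peaks in H3K27ac, in 46.1% (42.9 to 49.3%) of unmarked peaks at a TSS and in 25.3% (23.8 to 26.9%) of marked peaks at a TSS. The flanking windows of these 4 classes held it at 7.81%, 11.4%, 8.77% and 12.1%, so the ratio of peak to flank fell from 7.40 in the distal unmarked class to 2.09 at marked TSSs. Between distal peaks in H3K27ac and unmarked TSS peaks the order depended on the measure. Their whole-peak intervals overlap, and their ratios to flanks were 4.41 and 5.26. Within 100 bp of the midpoint 29.2% and 31.8% of them held the core. Among promoter windows from 250 bp before to 50 bp after the TSS, which are shorter than most peaks, 2.52% held it. At marked TSSs the share climbed with CTCF score, from 14.1% in the lowest decile to 37.1% in the highest, and among peaks touching neither mark it stayed between 54.7% and 60.7% in every decile. Median peak length also rose, from 634 bp in the lowest decile to 1089 bp in the highest. Within 100 bp of the midpoint the share in unmarked peaks fell from 44.1% to 36.8%, and at marked TSSs it rose from 5.81% to 15.5%. GC content moved with these classes, at a mean of 57.3% in marked TSS peaks and 44.1% in distal unmarked peaks, and its part in the result was not tested. The GATA motif AGATAA, searched on both strands, lay in 37.6% of CTCF peaks and in 38.5% of flanks, and in distal peaks in H3K27ac at 45.0% and 43.2%.

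Read the other way, the excess over moved peaks was larger for the peaks that lacked the core. Of 18880 peaks without it, 17.4% touched H3K4me3 against 3.98% after moving (ratio 4.39), 18.9% touched H3K27ac against 5.47% (ratio 3.45) and 14.6% lay within 1 kb of a TSS against 4.83% (ratio 3.02). Of 22593 peaks with it, 7.40% touched H3K4me3 against 4.65% (ratio 1.59), 9.95% touched H3K27ac against 6.41% (ratio 1.55) and 5.28% lay near a TSS against 5.16% (ratio 1.02). The contrast was widest among weak peaks. In the lowest 5 deciles of score the H3K4me3 ratio was 4.49 without the core and 1.11 with it. In the top decile it was 5.75 without and 3.45 with, so strong peaks that hold the motif were also marked more often than their moved copies. The direction did not hinge on an exact match. Requiring the core within 100 bp of the midpoint gave H3K4me3 ratios of 1.20 with and 3.68 without, and allowing 1 mismatch gave 2.56 for 38367 peaks with a match and 5.92 for 3106 without.

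**Figure D4:**
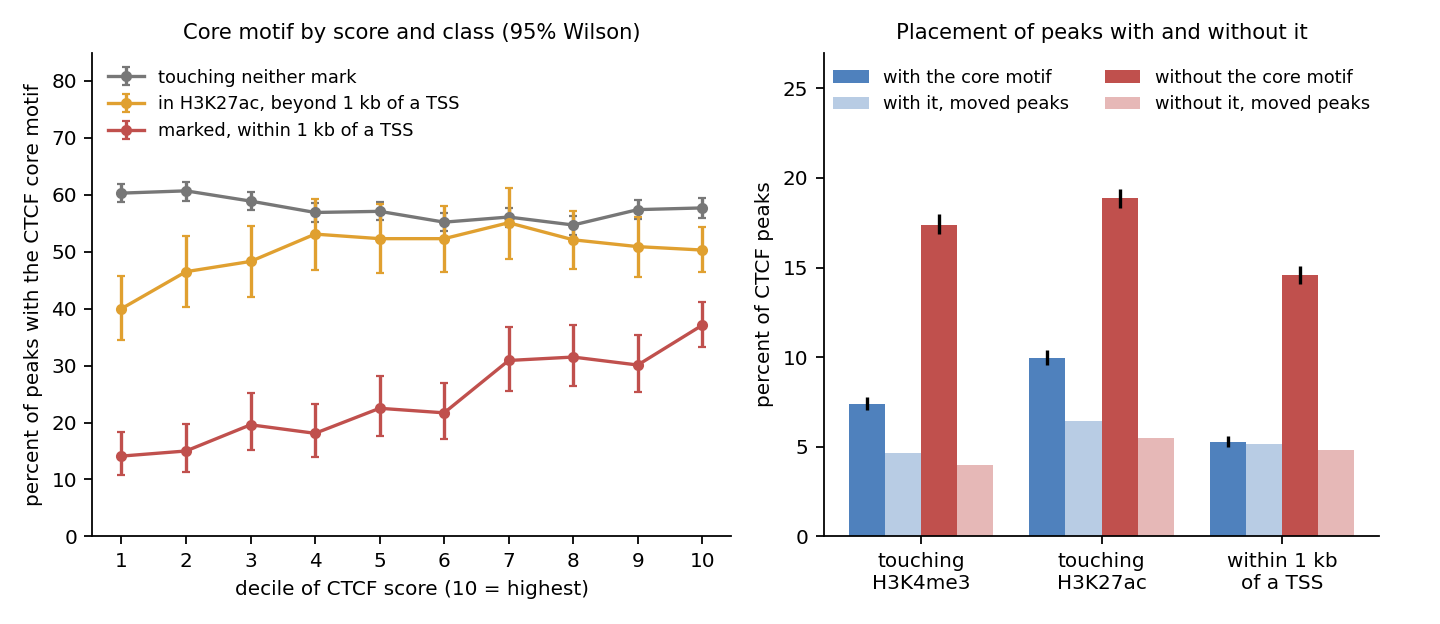
Left, percent of CTCF peaks that hold the core motif (y, 95% Wilson intervals) by decile of score (x) for peaks touching neither mark (grey), distal peaks in H3K27ac (orange) and marked peaks within 1 kb of a TSS (red). Right, percent of peaks with (blue) and without (red) the core in each position, beside moved peaks (pale), with 95% Wilson intervals. Peaks with the core sit at 5.28% near a TSS against 5.16% when moved, and peaks without it at 14.6% against 4.83%.

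The core has a direction, which was compared with that of the gene and of the neighbouring peak. Among marked TSS peaks with cores on 1 strand, 381 of 725 (52.6%, 48.9 to 56.2%) pointed the way of transcription. The share was 56.4% (51.9 to 60.7%) where the core lay upstream of the TSS and 44.8% (38.6 to 51.1%) where it lay downstream, and at unmarked TSSs it was 50.2%. For 11448 pairs of neighbouring peaks that both had cores on 1 strand, the order changed with distance. Under 20 kb apart, 21.4% of pairs were convergent and 26.2% divergent. At 100 kb or more, 34.3% (31.7 to 37.0%) were convergent and 16.8% (14.9 to 19%) divergent. H3K27ac regions were found in 24.3% of the convergent and 26.4% of the divergent intervals at that distance, and in 25.1% and 27.4% of those under 20 kb. Over all 41452 intervals between neighbouring CTCF peaks, with a median length of 19056 bp, 34.2% held an H3K27ac region, 29.6% an H3K4me3 region and 62.4% neither.

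The highest scores in the marked classes were of a particular kind. Within 1 kb of a TSS and marked, the 3 highest were at Gm10800 (chr2:98666086-98667477, score 3100), Gm10801 (chr2:98662084-98663135, score 2195) and Gm45844 (chr7:7277506-7278913, score 1689). Distal in H3K27ac, the 3 highest were nearest to Rab10 (chr12:3109602-3110260, score 3136), Axin2 (chr11:109011505-109012256, score 3100) and Gm21738 (chr14:19415553-19419841, score 3100). All 6 touched a peak in all 22 lists of the series, and all but Gm45844 lacked the core. At Rab10 the CTCF peak was 659 bp long and the mark peaks were 545, 544, 544 and 541 bp. At Gm21738 it was 4289 bp and the mark peaks were 4311, 4569, 4299 and 4298 bp. Soft-masked repeats made up 70.1% of the Gm10800 peak, 59.2% at Gm10801, 53.6% at Rab10 and 81.3% at Gm21738, but 2.53% at Axin2. The Esp38 and Cr2 peaks printed above, with mark peaks of 6119 to 6126 bp and 940 to 1250 bp, also touched all 22 lists, as did those of Rapgef1 and Adprhl2. The Esp38 peak was 6505 bp long (chr17:39842639-39849143), and the core printed for it lay near the end of the peak, far from the midpoint. Rapgef1 and Adprhl2 lie at TSSs, hold the core and were 4.38% and 1.81% soft-masked. Peaks at all these places were called for CTCF and for both marks. A steadily marked promoter with CTCF also touches all 22 lists, as did 57.3% of CTCF peaks in H3K4me3 regions with a TSS. Touching all 22 lists therefore cannot tell signal that is independent of the antibody from such promoters. Its part in the top scores was not tested. In the whole list a peak in all 22 lists was touched by 774 CTCF peaks of the top decile and 2002 of the rest.

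The unmarked classes looked different at the top. Near a TSS the highest scores were at Twf2 (twinfilin 2, an actin-binding protein, chr9:106211692-106212695, score 1235), H2-DMa (a chaperone of MHC class II peptide loading, chr17:34134957-34135854, score 1058) and Cln6 (chr9:62847296-62848354, score 1000). Distal and unmarked, they were nearest to Arid1b (chr17:4626027-4626755, score 3100), Armc9 (chr1:86178471-86179666, score 1506) and Sec22c (chr9:121697020-121698560, score 1504). None of these 6 had a mark peak at 24 h in either replicate. The Arid1b peak lay 368548 bp from the TSS, held no core and was 54.2% soft-masked. The Sec22c peak held 7 cores, and the other 4 held 1 each. All 6 were also called at 0 h.

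Gene lists were read at 1 TSS per gene, with offsets from that TSS to the CTCF midpoint negative upstream, beside the 15.7% of all genes with a CTCF midpoint within 1 kb and the 52.1% with one within 10 kb. The genes of CTCF and cohesin had CTCF within 1 kb at 9 of 11 (81.8%). These were Ctcf itself, the cohesin loader Nipbl, the ring subunits Smc1a and Smc3, the SA subunits Stag1 and Stag2, the cohesin regulators Pds5a and Pds5b, and Yy1, a zinc-finger factor also linked to looping. All 11 had H3K4me3, so the nearer comparison is the 30.7% of promoters with H3K4me3 at 0 and 24 h. Stag1 had the highest score, 880.0, with its peak midpoint at −159 bp and 2 cores, and Ctcf had 533.6, at 463 bp. Smc1a and Yy1 had weak peaks, at 78.50 and 55.00. The 2 without were Rad21, the kleisin subunit, at −6462 bp, and the cohesin release factor Wapl, at 6441 bp.

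Cytosolic ribosomal protein genes had CTCF within 1 kb at 13 of 35, and 34 of 35 carried H3K4me3. Heme synthesis genes had it at 3 of 10, Ppox, the mitochondrial iron importer Slc25a37 and the glycine carrier Slc25a38, whose peak midpoint lay 3 bp from the TSS. Erythroid transcription factors had it at 4 of 18 (Gfi1b, Ikzf1, Nfe2, Zfpm1), and the study's captured promoters, which were chosen by their expression change in these cells and are not independent evidence, at 8 of 41. The transcription factor share, 22.2%, is near that of all genes. Among members with H3K4me3 the shares were 38.2% for ribosomal, 33.3% for heme, 18.2% for transcription factor and 23.3% for captured genes. The nearer comparison is again the 30.7% of promoters with H3K4me3 at 0 and 24 h, and the ribosomal and heme shares are not far from it. Within 10 kb, 9 of 10 heme genes had a peak.

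None of the 8 globin-locus genes had CTCF within 1 kb of the TSS. In the α-globin cluster the Hba-a1 and Hba-a2 promoters, which carried both marks, had peaks 3168 and 3170 bp downstream, with scores of 541.5 and 385.4. The first touched both marks in both replicates, with H3K27ac peaks of 8183 and 7350 bp. The second lay in a stretch that was called for H3K4me3 in replicate 2 only, although the merged region holds both lists. These gene copies are nearly identical, so how reads were divided between them is uncertain. A stronger peak, with a score of 989.7 (percentile 99.7), lay 37925 bp downstream of Hba-a1 and touched no mark. Upstream, on the side of the Nprl3 gene whose introns hold the α-globin enhancers, a peak at −36321 bp from Hba-a1 lay in H3K27ac alone. In the β-globin cluster CTCF lay outside the genes. The peak 20881 bp downstream of Hbb-bs (6949 bp downstream of Hbb-bt) had a score of 395.7 and no mark, and a peak 34918 bp downstream had 398.9, 1 core and H3K27ac in both replicates, with peaks of 908 and 1882 bp. On the other side, a peak at −20067 bp from Hbb-y had 333.6 and H3K27ac in replicate 2 only. All these globin peaks were also called at 0 h.

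Genes of the GATA switch, in which GATA1 replaces GATA2 as the cells mature, had CTCF within 1 kb at 2 of 8. Kit, the stem cell factor receptor, had a peak at 673 bp downstream with a score of 253.5 and 1 core, inside H3K4me3 peaks of 8667 and 8514 bp and without H3K27ac. Zfpm1, which encodes the GATA1 partner FOG1, had a weak peak, at 53.69, that was not called at 0 h. Klf1, the erythroid Krüppel-like factor, had its nearest peak 1478 bp downstream with a score of 465.6, 2 cores and both marks. Gata2 carried neither mark at the TSS read here, at 0 h or at 24 h, and its nearest CTCF peak lay at −4311 bp with a score of 584.0, also without a mark. Tal1 and Lmo2 had their nearest peaks at −8367 and 11559 bp, each in both marks. Ldb1 had its own at 8046 bp, touching H3K4me3 in replicate 1 only (4171 bp) and no both-replicate region. Gata1 had its own at 10649 bp, unmarked. Of imprinted genes and genes often used as CTCF references, 0 of 6 had CTCF within 1 kb and 5 of 6 within 10 kb. Myc, the only one with active marks at its promoter, had a peak at −2530 bp with a score of 323.1, in both marks. The nearest peak at Hoxa9 lay at 5532 bp in H3K4me3, with H3K27ac in replicate 1 only. The nearest peaks at Cdkn1c, Hoxd13 and Igf2 were unmarked. At Hoxd13 that peak lay at −4584 bp with a score of 93.45. A stronger Hoxd13 peak, at 4897 bp with a score of 279.8 and 1 core, lay in both marks. At App the nearest peak was 291495 bp away.

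CTCF positions at 24 h were largely those of 0 h, and so were the marks on them. Of the 24 h peaks 30414 (73.3%) touched a 0 h peak, and 30582 of 33193 0 h peaks (92.1%) touched a 24 h peak. The 24 h list was longer, and the 11059 peaks without a 0 h partner were weak, with a median score percentile of 17.9 against 63.2 for shared peaks. They touched H3K4me3 at 10.0% and H3K27ac at 12.4%, against 12.7% and 14.6% for shared peaks, and held the core at 56.5% (55.6 to 57.4%) against 53.7% (53.2 to 54.3%). At 0 h 12.7% of CTCF peaks touched H3K4me3 (ratio 2.99), 14.3% touched H3K27ac (ratio 2.57) and 9.33% lay within 1 kb of a TSS (ratio 1.89). Of the 4964 24 h CTCF peaks in H3K4me3, 4808 (96.9%) lay in an H3K4me3 region at 0 h as well, and of the 5809 in H3K27ac, 5187 (89.3%) did. Peaks in both 24 h lists of H3K27ac and neither 0 h list numbered 424, and the reverse 365, while for H3K4me3 they numbered 96 and 221. Each time has 1 CTCF list, so these values were not tested.

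The 20 mark lists were then each set against the 24 h CTCF list, to ask whether marks of 24 h lie on it more than earlier marks do. The lists of 0 h H3K4me3 touched 12.5% and 12.8% of CTCF peaks, those of 2 h 12.6% and 11.9%, those of 6 h 12.3% and 12.2%, those of 12 h 12.1% and 12.0%, and those of 24 h 12.0% and 12.1%. This share did not pass a test for change with time (Spearman's rho −0.591, Pearson's r −0.525, permutation test of 100000 orders, two-sided, adjusted p = 0.168 for rho and 0.231 for r over 4 relations). Its ratio to moved peaks did not pass either (rho −0.0985, r −0.298, adjusted p = 0.810 and 0.537, same permutation test). The share touched by H3K27ac, from 14.3% to 14.9%, did not pass over all 10 lists (rho 0.345, r 0.145, adjusted p = 0.456 and 0.697, same permutation test), and without the 24 h lists rho was 0.830 (exact permutation test, unadjusted p = 0.0198). The H3K27ac ratio fell slightly. Both lists of 0 h gave 2.49, those of 2 h 2.47 and 2.45, both of 6 h 2.43, both of 12 h 2.42, and those of 24 h 2.39 and 2.44 (rho −0.837, r −0.762, adjusted p = 0.0199 and 0.0444, permutation test), and without the 24 h lists r was −0.903. This call was lost when only mark peaks or only CTCF peaks of at least median score were used (adjusted p = 0.275 and 0.0874 for rho, permutation test). It was also lost when either 0 h list or replicate 1 of 2 h was left out (adjusted p = 0.0744, 0.0744 and 0.0695, exact permutation test). The H3K27ac lists covered 45.0 and 43.9 Mb before estradiol, 46.3 and 46.6 Mb by 12 h, then 46.5 and 43.9 Mb, and the part of this was not tested.

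The marks differed from each other in all 10 time-matched pairs of lists. H3K27ac touched more 24 h CTCF peaks, 14.7% ± 0.211 against 12.2% ± 0.301 for H3K4me3 (SD, n = 10 lists), a difference of 2.40 percentage points. Its ratio to moved peaks was lower, 2.44 ± 0.0326 against 2.86 ± 0.0334, and a smaller share of its peaks held CTCF, 32.5% ± 0.400 against 36.4% ± 0.597. Each of the 3 differences had an exact permutation p of 0.00195 over exchanges of the mark labels within pairs (two-sided, adjusted p = 0.00195), the smallest that 10 pairs allow. With mark peaks of at least median score the same test gave the same p, but the differences in ratio and in the share of peaks holding CTCF were smaller, −0.117 and −1.58 against −0.415 and −3.89. All lists were set against 1 CTCF list, so the test covers the spread between mark lists and not that of CTCF. The pairs are times and replicates of 1 line, so they are repeated measures and not independent samples. H3K27ac lists covered 43.9 to 46.6 Mb against 29.3 to 32.9 Mb. They also touched more moved peaks, 5.78 to 6.17% against 4.11 to 4.53%. The difference in peaks touched therefore does not stand apart from coverage. At 24 h alone, 2 lists against 2 cannot go below 0.333. The share of H3K4me3 peaks that held a 24 h CTCF peak went from 35.7% and 35.6% before estradiol to 37.3% and 37.1% after 24 h, while the lists shortened from 14014 and 14452 peaks to 12925 and 13070.

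**Figure D5:**
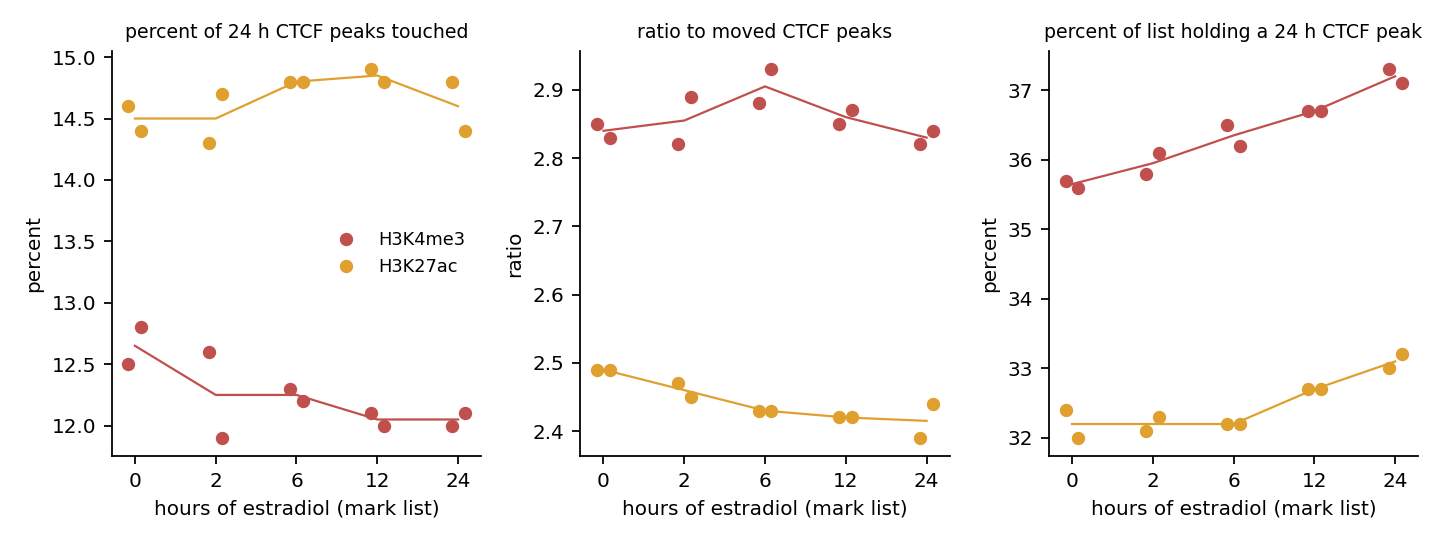
Each of the 20 mark lists against the 24 h CTCF list, by hours of estradiol (x, times evenly spaced). Points are replicate lists and lines join their means, for the percent of CTCF peaks touched, the ratio to moved peaks and the percent of the list's own peaks that hold CTCF, on y axes that do not start at 0. H3K4me3 (red) lies below H3K27ac (orange) in the first panel and above it in the other 2 at every time.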

How the data were processed

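ChIP-seq was done for CTCF, H3K4me3 and H3K27ac in G1E-ER4 cells. Per the labels, reads were aligned with Bowtie2 to mm10 and uniquely aligned reads kept. The extract protocol of all 22 samples names a human build instead, but all peak positions lie within mm10 chromosomes. The authors' methods name MACS for the histone marks. Settings for CTCF are not given in the sources used here. The deposited value is the peak score per peak, called for each library separately. No accompanying read counts were used, so depth is unknown.

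Peaks sharing at least 1 bp were called touching. Regions were merged stretches with a peak in both replicates. TSSs were the 58745 of protein-coding transcripts in GENCODE M21, or 1 for each of 21853 genes (best APPRIS transcript). Moved peaks are the mean of 4 shifts (50 and 100 kb either way). Intervals are 95% Wilson intervals. The core motif has 12 letters, 8 of them fixed. Overlap, motif and permutation code was tested on simulated data. Python 3.11.15, numpy 2.4.6, pandas 2.3.3 and scipy 1.17.1 were used. Named peaks are the 3 highest scores in each of 4 classes, and named regions the 3 per mark with most CTCF peaks. Named genes are those of the globin, GATA switch and reference lists, with counts for the others, from which the CTCF and cohesin genes and some examples were named after their values were seen. Another gene list is not reported here. The members and lists were chosen with earlier results of these data known. Replicate numbers did not pair lists across times, as the correlation of deviations was −0.0596 to 0.0305.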

Additional observations from a re-analysis of the deposited data

How the results depend on the processing

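Depth and antibody efficiency are unknown, there is 1 CTCF list, and a list's length sets how much it touches. The core motif is a strict pattern, so a peak without it may hold a weaker match. The share touching H3K4me3 (12.0%) was 14.0% for CTCF peaks and 6.73% for mark peaks of at least median score, 10.6% with at least 50% of the peak inside, 11.6% over bases covered in both lists, and 12.0 to 12.1% leaving out a replicate. That for H3K27ac (14.0%) was 16.1%, 8.79%, 12.4%, 13.2% and 14.4 to 14.8%. Ratios for H3K4me3 (2.76) were 3.02, 2.69, 3.30, 2.90 and 2.82 to 2.84 in that order, 2.73 on autosomes, and 2.32 and 3.98 for moves of 10 and 500 kb. Ratios for H3K27ac (2.34) were 2.58, 2.57, 2.71, 2.53, 2.39 to 2.44, and 1.98 and 3.39. Within 1 kb of a TSS, the share (9.53%, ratio 1.90) was 10.5% (1.99) at or above the median score, 7.62% (2.36) with 1 TSS per gene, 6.86% (2.57) within 500 bp and 14.0% (1.49) within 2 kb, and moves of 10 and 500 kb gave ratios of 1.76 and 2.38.

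Added after seeing the data, leaving out the 100 CTCF peaks scoring 1000 or more, too few to move the shares much, gave 11.9% and a ratio of 2.73 for H3K4me3. With the core motif the shares were 7.40%, 9.95% and 5.28% (ratios 1.59, 1.55 and 1.02) for H3K4me3, H3K27ac and TSSs, and without it 17.4%, 18.9% and 14.6% (4.39, 3.45 and 3.02). The core was found in 54.5% of all peaks, or 92.5% with 1 mismatch and 37.5% within 100 bp of the midpoint. These were 86.5% and 10.3% for marked TSS peaks, 89.5% and 31.8% for unmarked TSS peaks, 89.9% and 29.2% for distal H3K27ac peaks, and 93.4% and 41.0% for distal unmarked peaks, and with 1 mismatch the flanks held a match at 52.7%.

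The trend of the H3K27ac ratio had rho −0.739 with CTCF peaks and −0.517 with mark peaks of at least median score (adjusted p 0.0874 and 0.275, permutation test), and −0.983 to −0.780 leaving out 1 list. Leaving out 1 list, rho was −0.856 to −0.449 for the H3K4me3 share, which passed without replicate 2 of 2 h (adjusted p = 0.0208, exact permutation test), −0.331 to 0.119 for the H3K4me3 ratio and 0.212 to 0.712 for the H3K27ac share. With hours permuted within replicate number as a block, no call on the 4 trends changed, with adjusted p of 0.186, 0.803, 0.494 and 0.0222 by exact permutation for the H3K4me3 share and ratio and the H3K27ac share and ratio. The differences between marks in share, ratio and peaks holding CTCF kept their direction and call in the alternatives run. They were 2.35 to 2.50, −0.423 to −0.406 and −3.95 to −3.85 leaving out 1 pair, 2.10, −0.117 and −1.58 with mark peaks of at least median score, 2.45, −0.472 and −2.72 with such CTCF peaks, and 2.34, −0.486 and −3.36 with the 0 h CTCF list. With labels exchanged without pairing the call also held.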

Other observations

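Promoters whose marks differed between 0 and 24 h are few, and CTCF was found on them at shares between those of always marked and never marked promoters. H3K4me3 was called at both times at 9500 promoters, of which 30.7% (29.8 to 31.6%) had a 24 h CTCF peak within 1 kb, at 24 h alone at 76 (23.7%, 15.5 to 34.4%), at 0 h alone at 139 (20.9%, 14.9 to 28.4%) and at neither time at 12138 (3.82%, 3.50 to 4.18%). For H3K27ac the shares were 30.6% of 8557, 20.6% of 189, 28.2% of 351 and 5.24% of 12756. The 139 promoters that had H3K4me3 at 0 h alone, Zfpm1 among them, had a 0 h CTCF peak at 15.8% (10.7 to 22.8%), and the 76 with H3K4me3 at 24 h alone at 19.7%. The intervals of these small groups overlap.

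Of the 2934 promoters with both H3K4me3 and CTCF, 709 (24.2%) had a nearest peak with the core, and the median score percentile was 71.8 with it and 50.1 without. At the 493 promoters with CTCF and no H3K4me3 the core was in 39.1% (34.9 to 43.5%).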
